A study of Mus musculus with 6 samples.

Results

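The Schlafen genes are a small family of leukocyte genes that lie side by side on mouse chromosome 11. Members were chosen by symbol, and 7 were listed: Slfn1, Slfn2, Slfn3, Slfn4, Slfn5, Slfn8 and Slfn9. Of these, 6 were among the 13564 genes of the authors' normalized table, and Slfn4 was read only from the count files, which hold 55487 genes. The study compared the progeny of naive CD4 T cells (CD4N cells) that carry or lack Foxo1, a forkhead transcription factor that keeps naive T cells quiescent and directs their homing. Of the 7 members, 4 had significantly fewer transcripts in Foxo1TKO than in Foxo1Ctrl cultures. By the same test and threshold, 23.0% of all genes tested differed between the genotypes (11.8% lower and 11.1% higher in Foxo1TKO). Slfn1 showed the strongest fall of the members (14.6-fold, n = 3 per genotype). The other members did not pass edgeR's test in either direction, and Slfn4 was hardly transcribed in these cultures.

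Foxo1TKO mice carry floxed Foxo1 alleles and a Cre recombinase driven by CD4, so the gene is deleted in both CD4 and CD8 T cells from the double-positive stage in the thymus. Foxo1Ctrl mice carry the floxed alleles without Cre. Both are C57BL/6J by their labels and young adults by the study's text, which also describes both lines as carrying Foxp3-GFP. CD4N cells sorted from lymph nodes were activated in vitro over 4 days, with 50000 T cells per culture, soluble anti-CD3 antibody (clone 145-2C11, 0.1 µg/ml) and 250000 splenocytes of CD3εKO mice, which lack T cells and serve to present the antibody. These settings were the same for the 3 Foxo1TKO and 3 Foxo1Ctrl cultures, and RNA was sequenced once from each. The methods give a larger number of T cells per culture than the labels, and neither says if RNA was taken from T cells alone or from the whole culture, splenocytes included. The labels do not say that replicates came from separate mice, so p-values measure the spread between these 3 samples per genotype, which may be technical.

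Schlafen proteins share an N-terminal core that resembles an RNA-cutting fold, and the longer ones add a helicase-like part at the C-terminus. Slfn1 and Slfn2 encode the short proteins of the family, Slfn3 and Slfn4 the intermediate ones, and Slfn5, Slfn8 and Slfn9 the long ones. The founding members were found through their regulation during thymocyte maturation and T cell activation, and transcription of several members is induced by type I interferons. Loss of functional Slfn2, as in elektra mice, leaves T cells in a semi-activated state in which they die upon stimulation, and the protein binds transfer RNAs and protects them from cleavage. Slfn4 is best known from myeloid cells.

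The promoters of the members are shown with exact matches to short motifs marked, and the letters were read from RefSeq (GRCm38.p6). The motif marked in the short and intermediate members was chosen after these promoters had been read. The split of motifs between them and the long members is thus only a description of these sequences. All 7 members had an entry, and each window searched covered the 250 bases upstream of the RefSeq start, on both strands. The 170 bases before the start are printed for the most abundant short members, Slfn1 (chr11:83116650-83116819, + strand) and Slfn2 (chr11:83064942-83065111, + strand), and for the long members Slfn8 (chr11:83020811-83020980, - strand) and Slfn9 (chr11:82991831-82992000, - strand). Each runs 5′ to 3′ on the strand of its gene, and capitals mark the match to one of the motifs described after the sequences.
Slfn1: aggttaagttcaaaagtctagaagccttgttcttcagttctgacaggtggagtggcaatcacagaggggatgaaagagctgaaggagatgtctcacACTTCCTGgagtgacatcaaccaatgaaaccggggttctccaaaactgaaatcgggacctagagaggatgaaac
Slfn2: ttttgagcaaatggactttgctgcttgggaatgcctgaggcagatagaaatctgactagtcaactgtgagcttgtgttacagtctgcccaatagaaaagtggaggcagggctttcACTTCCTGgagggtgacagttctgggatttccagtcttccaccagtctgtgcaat
Slfn8: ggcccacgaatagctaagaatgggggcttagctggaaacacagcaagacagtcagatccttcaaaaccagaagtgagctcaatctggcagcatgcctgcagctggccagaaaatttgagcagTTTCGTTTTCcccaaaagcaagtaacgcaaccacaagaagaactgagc
Slfn9: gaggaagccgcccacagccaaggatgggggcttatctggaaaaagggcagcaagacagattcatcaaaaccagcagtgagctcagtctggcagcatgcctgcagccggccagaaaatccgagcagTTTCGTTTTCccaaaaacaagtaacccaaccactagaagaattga

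For the members with lower levels, 30 bases around the match are given, from chr11:83191268-83191297 for Slfn3, chr11:83175103-83175132 for Slfn4 and chr11:82951937-82951966 for Slfn5, all on the + strand. The RefSeq start used for Slfn5 lies inside the gene as GENCODE annotates it.
Slfn3: ggCAGGAAGTggatgacagaACTTCCTGgg
Slfn4: ttccggttatACTTCCTGgagtgacgaaat
Slfn5: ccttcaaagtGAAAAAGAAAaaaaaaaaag

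In Slfn1, Slfn2, Slfn3 and Slfn4, the short and intermediate members, the capitals mark ACTTCCTG or its reverse complement, a core to which ETS factors bind, with its flanks. This motif was chosen after the promoters had been read. It lies at position -74 in Slfn1, -55 in Slfn2 and -73 in Slfn4 (first base, counted from the start), and Slfn3 holds it at both -60 and -42. In Slfn5, Slfn8 and Slfn9, the long members, the capitals mark GAAANNGAAA or its reverse complement, the core of the element bound by interferon-activated factors, at -155, -48 and -45. The ETS core was found in 2.69% and the interferon response element core in 2.98% of the 32851 promoter windows of the mouse table. The forkhead core GTAAACA was found in 3.17% of all windows and in none of the 7 members. The windows of Slfn8 and Slfn9 were 80.0% identical, whereas all other pairs of members were between 44.4% and 51.5% identical. A match is a description of these letters and shows no binding, and the absence of one says nothing of the factor.

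The 6 libraries held between 14783890 and 19675447 expected counts, and the test covered the 13691 genes that reached 10 counts in 3 or more libraries. Foxo1 itself fell from 1804 ± 418 to 82.2 ± 34.3 normalized counts (SD, n = 3), a log2 fold change of -4.45 ± 0.36 (SE; edgeR, Benjamini-Hochberg adjusted p = 0.000195), as the labels require. T cell markers summed to between 7731 and 8378 TPM (RSEM's abundance per transcript length) in Foxo1TKO and 9425 to 9990 in Foxo1Ctrl libraries. Markers of the other cells a culture could hold were far lower, and some moved with genotype. The 8 B cell markers summed to 6.93 to 10.1 TPM in Foxo1TKO and 22.5 to 29.6 in Foxo1Ctrl. NK cell markers summed to 26.7 to 33.8 against 6.70 to 10.7 TPM, mostly through Eomes, which activated T cells also transcribe. Neutrophil markers (0.84 to 6.17 against 0 to 0.31 TPM) and macrophage and monocyte markers (4.46 to 5.84 against 2.41 to 3.40 TPM) were low, with the macrophage genes C1qa and Mertk at 0 in every library. CD8 T cell markers summed to 4.27 to 6.48 against 6.87 to 8.29 TPM. Sums of dendritic cell markers (83.2 to 94.2 against 82.5 to 96.5 TPM, mostly Bst2) and of erythroid markers (15.2 to 35.9 against 20.7 to 40.8 TPM) overlapped between the genotypes. Within the dendritic cell list Itgax was higher, with 415 ± 67.7 normalized counts in Foxo1TKO and 0.72 ± 0.63 in Foxo1Ctrl cultures (SD, n = 3; edgeR, Benjamini-Hochberg adjusted p = 3.42e-05). The part of these cells in the Schlafen results was not tested. In bulk RNA, fewer cells of a type and less RNA per cell cannot be told apart.

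A gene was called by edgeR's quasi-likelihood test where it changed over 1.5-fold with an adjusted p below 0.05. Among the members, 6 of 7 passed the filter on low counts, each with at least 10 counts in all 6 libraries, and 4 of these were called, all lower. The 6 tested members had separate ranges in both genotypes, while 42.7% of all genes tested did. The median log2 fold change of the 6 was -1.57, with a median of 0.01 over all genes tested.

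**Figure D1:**
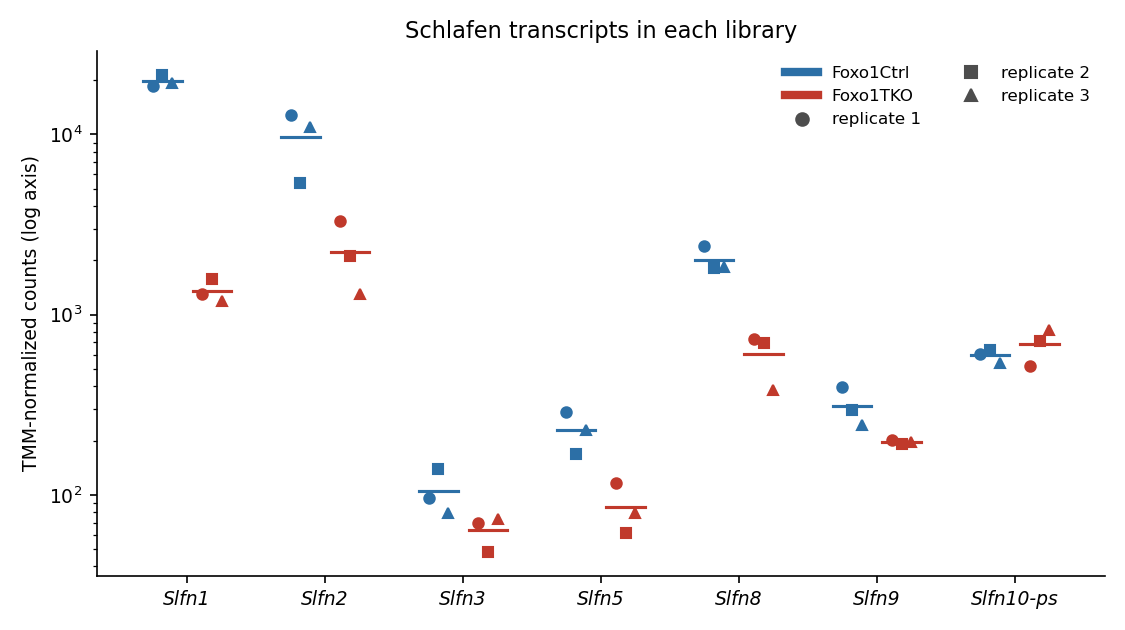
TMM-normalized counts (log axis) of the 6 tested members and of the pseudogene Slfn10-ps in each library, with symbols for replicates and a horizontal line at the mean of 3 libraries. Foxo1TKO points lie below all Foxo1Ctrl points for each member, by the widest gap for Slfn1 (1190 to 1571 against 18501 to 21451), whereas the points of Slfn10-ps overlap.

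Among the short members, Slfn1 (chr11:83116849-83122670, + strand) had 18501, 21451 and 19387 normalized counts in the Foxo1Ctrl libraries, in the order of their replicate numbers. The Foxo1TKO libraries had 1293, 1571 and 1190. The lowest Foxo1Ctrl library was thus 11.8-fold above the highest Foxo1TKO library. The means were 19780 ± 1514 in Foxo1Ctrl and 1351 ± 197 in Foxo1TKO cultures (SD, n = 3), and Foxo1TKO cells kept 6.84% of the control level. The log2 fold change was -3.87 ± 0.18 (SE; edgeR, Benjamini-Hochberg adjusted p = 3.42e-05). Ordered by log2 fold change from the most lowered gene, Slfn1 stood at position 120 of 13691, and no other gene that fell at least as far had as many normalized counts in Foxo1Ctrl cultures.

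Slfn2 (chr11:83065112-83070678, + strand), the member tied to T cell quiescence, varied more between cultures of one genotype. The Foxo1Ctrl libraries had 12796, 5383 and 10988 normalized counts, replicate 2 being the low one. The Foxo1TKO libraries had 3287, 2101 and 1301. The groups did not overlap, but the lowest Foxo1Ctrl library was only 1.64-fold above the highest Foxo1TKO library. The mean fell from 9722 ± 3865 to 2230 ± 999 (SD, n = 3), with a log2 fold change of -2.12 ± 0.41 (SE; edgeR, Benjamini-Hochberg adjusted p = 0.00856). The coefficient of variation of Slfn2 was 39.8% in Foxo1Ctrl and 44.8% in Foxo1TKO, that of Slfn1 7.65% and 14.6%.

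Of the intermediate members, Slfn3 (chr11:83191330-83215154, + strand), known from T cells and from differentiating gut epithelium, was present at a low level. It had 96.6, 138 and 79.5 normalized counts in the Foxo1Ctrl and 70.1, 48.3 and 73.0 in the Foxo1TKO libraries. The ranges came within 1.09-fold of each other, and the log2 fold change of -0.71 ± 0.31 did not pass the test (SE; edgeR, Benjamini-Hochberg adjusted p = 0.143). Slfn4 (chr11:83175186-83190216, + strand), its neighbour, had 1.01, 0 and 4.02 expected counts in the Foxo1Ctrl libraries and 0 in all 3 Foxo1TKO libraries. Both groups were near or under 3 counts, the limit that a count of 0 allows per library for counting error, so no fold change is given and a difference was not detectable at this depth. Slfn4 was not tested because of this, and the myeloid marker genes of the same libraries were low too.

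Among the long members, Slfn8 (chr11:83002158-83020810, - strand) had 2403, 1803 and 1839 normalized counts in the Foxo1Ctrl and 736, 697 and 381 in the Foxo1TKO libraries. The Foxo1TKO replicate 3 was the lowest, as it was for Slfn2, and the groups stood 2.45-fold apart at their nearest. The mean fell from 2015 ± 336 to 605 ± 195 (SD, n = 3), a log2 fold change of -1.73 ± 0.27 (SE; edgeR, Benjamini-Hochberg adjusted p = 0.00316).

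Slfn5 (chr11:82951349-82964840, + strand), an interferon-inducible nuclear member, had 286, 168 and 230 normalized counts in the Foxo1Ctrl and 117, 61.4 and 79.4 in the Foxo1TKO libraries. The nearest libraries of both groups differed 1.44-fold. The mean fell from 228 ± 59.0 to 85.8 ± 28.2 (SD, n = 3), with a log2 fold change of -1.40 ± 0.32 (SE; edgeR, Benjamini-Hochberg adjusted p = 0.0162). This call was the least secure of the 4: it was lost in an edgeR fit with the deposited effective lengths (log2 fold change -1.19, adjusted p = 0.0772) and without any one of Foxo1TKO replicate 2 (-1.19, 0.0742), Foxo1TKO replicate 3 (-1.34, 0.0581), Foxo1Ctrl replicate 1 (-1.23, 0.0627) or Foxo1Ctrl replicate 3 (-1.40, 0.0514). Slfn5os, annotated on the opposite strand, overlaps exons of Slfn5, and the sources used here do not say whether counting used the strand of the reads.

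Slfn9 (chr11:82978390-82991830, - strand), the closest relative of Slfn8 in promoter sequence, had 395, 294 and 243 normalized counts in the Foxo1Ctrl and 200, 191 and 195 in the Foxo1TKO libraries. All Foxo1TKO values were thus below all Foxo1Ctrl values. Its log2 fold change of -0.66 ± 0.23 (SE) did not pass edgeR's test (Benjamini-Hochberg adjusted p = 0.0691). It passed DESeq2's Wald test, the study's own method, with the same log2 fold change (adjusted p = 0.0363), so DESeq2 called 5 members where edgeR called 4.

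Slfn10-ps (chr11:83028130-83040042, - strand), an annotated transcribed pseudogene that lies between Slfn8 and Slfn2, was no member of the list and is given as a relative of Slfn8 and Slfn9. It had 607, 637 and 536 normalized counts in the Foxo1Ctrl and 519, 716 and 822 in the Foxo1TKO libraries. These ranges overlapped, and the log2 fold change of 0.21 ± 0.21 did not pass the test (SE; edgeR, Benjamini-Hochberg adjusted p = 0.511). Slfn14, at the far end of the cluster, and the Schlafen-like gene Slfnl1 on chromosome 4 had 0 counts in every library.

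The members resemble each other, and RSEM shares a read that maps to several genes between them. In the longest annotated transcripts, the share of 75-base windows also found in another gene was 0% for Slfn1, 1.70% for Slfn2, 1.64% for Slfn5, 6.06% for Slfn9, 7.52% for Slfn8 and 8.37% for Slfn3. It was 11.5% for Slfn10-ps, mainly with Slfn9. Slfn3 shared mostly with Gm11427 (4.60%), and Slfn2 only with Slfn4. When counts of close relatives were added up before the fit, Slfn1 and Slfn2 together had a log2 fold change of -3.04 ± 0.24 (SE; edgeR, Benjamini-Hochberg adjusted p = 0.000195). As Slfn1 and Slfn2 shared no window with each other, this sum does not test the division of reads. Slfn8, Slfn9 and Slfn10-ps together had a log2 fold change of -0.97 ± 0.16 (adjusted p = 0.00387). Slfn3 and Slfn4 together, without Gm11427, had one of -0.73 ± 0.31 (adjusted p = 0.125). The separate values of Slfn8, Slfn9 and Slfn10-ps rest on how RSEM divided shared reads, which was not tested further, whereas their sum was lower in Foxo1TKO.

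Levels of different members were compared per transcript length, in TPM as deposited. In Foxo1Ctrl cultures, Slfn1 (745 ± 31.4 TPM, SD, n = 3) was followed by Slfn2 (428 ± 199) and Slfn8 (37.1 ± 8.18), with no overlap between neighbours in this order. Slfn9 (4.26 ± 1.29), Slfn3 (3.73 ± 0.75) and Slfn5 (3.16 ± 0.97) followed, and these last 3 overlapped. In Foxo1TKO cultures Slfn2 (102 ± 54.0 TPM) came before Slfn1 (53.1 ± 9.01), with overlapping ranges, and the order of the others was kept at lower levels: Slfn8 12.2 ± 4.99, Slfn9 2.66 ± 0.52, Slfn3 2.42 ± 0.53 and Slfn5 1.46 ± 1.00 TPM. Slfn1 was the gene of rank 199 by mean TPM among the 13691 genes tested in Foxo1Ctrl cultures, which put it among their abundant transcripts, and of rank 2730 in Foxo1TKO cultures.

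**Figure D2:**
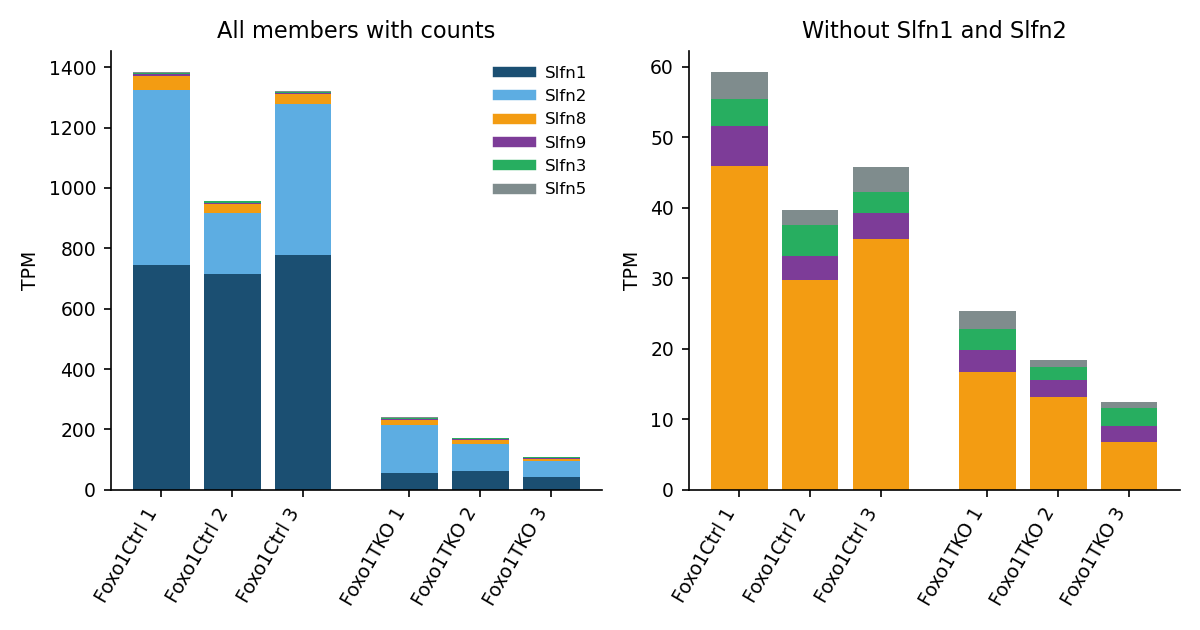
TPM of the tested members stacked in each library, for all 6 members on the left and without Slfn1 and Slfn2 on the right, where the axis is expanded. The family summed to 957 to 1385 TPM in the Foxo1Ctrl libraries and to 109 to 241 TPM in the Foxo1TKO libraries, and Slfn8 made up most of what was left without the short members.

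In these libraries, the family's sum and the shares of Slfn1 and Slfn2 in it had separate ranges in the genotypes. Neither the sum nor these shares were tested. Slfn1 gave 53.7% to 74.6% of the family's TPM in the 3 Foxo1Ctrl and 23.1% to 39.6% in the 3 Foxo1TKO libraries, while Slfn2 gave 21.2% to 42.1% and 49.0% to 66.4%. The ratio of Slfn1 to Slfn2 was 1.28, 3.52 and 1.56 in the Foxo1Ctrl and 0.347, 0.660 and 0.807 in the Foxo1TKO libraries. The high ratio of Foxo1Ctrl replicate 2 comes with its low Slfn2. The ratio of Slfn8 to Slfn9 was 8.01, 8.97 and 9.49 in the Foxo1Ctrl and 5.14, 5.30 and 3.02 in the Foxo1TKO libraries, and that of Slfn8 to Slfn10-ps was 3.56, 2.84 and 3.15 against 1.44, 0.965 and 0.464. The genotypes did not overlap in any of these 3 ratios. For each, the exact two-sided permutation test gave p = 0.1, also after adjustment over the 3 ratios, which is the smallest p that 3 against 3 allows.

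Slfn1 and Slfn2 have a single annotated transcript each, so their length was fixed at 1864 and 1664 bases. For the others RSEM reports a mean transcript length weighted by the estimated share of each isoform. That of Slfn5 was 5134, 4765 and 4659 bases in the Foxo1Ctrl libraries but 3437, 4487 and 5979 in the Foxo1TKO libraries, a wide scatter among libraries with few Slfn5 reads. The lengths of Slfn8 (3595 to 3739 bases in Foxo1Ctrl, 3396 to 3649 in Foxo1TKO) and of Slfn9 (4591 to 5179 and 4678 to 5492) overlapped between genotypes. No isoform difference that separates the genotypes was thus seen for any of these 3 members.

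The members extend over 263.8 kb of chromosome 11. Of the genes with their body within 500 kb of the outermost members, 19 besides Slfn10-ps were tested. Called were 3 of these 19, and 23.0% of all genes tested. Rffl, a ubiquitin ligase gene on the Slfn5 side of the cluster, fell by 0.88 on the log2 scale (edgeR, Benjamini-Hochberg adjusted p = 0.0281), and Ccl5, a chemokine gene on the far side, fell by 0.73 (adjusted p = 0.0324). The antisense gene Gm11423 rose by 0.92 (adjusted p = 0.0272). The log2 fold changes of the 19 ran from -0.88 to 1.33 with a median of -0.01, and those of the 6 members from -3.87 to -0.66. Cct6b, Zfp830, Lig3, Rad51d, Nle1, AI662270, Gm11427, AA465934, Ap2b1, 1700020L24Rik, Taf15, Ccl3 and Ccl4 did not pass the test, Ccl4 having the highest log2 fold change of the 19 (1.33 ± 0.49, SE; adjusted p = 0.0874). Whether members and neighbours differ as groups was not tested. Within the span of the members, Gm20234, which overlaps Slfn2 on the opposite strand, had 74.9 ± 33.9 normalized counts in Foxo1TKO and 36.9 ± 18.5 in Foxo1Ctrl cultures (SD, n = 3), and Gm11425 had 17.6 ± 8.49 and 20.1 ± 4.48. Neither passed the test (edgeR, Benjamini-Hochberg adjusted p = 0.162 and 0.791).

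**Figure D3:**
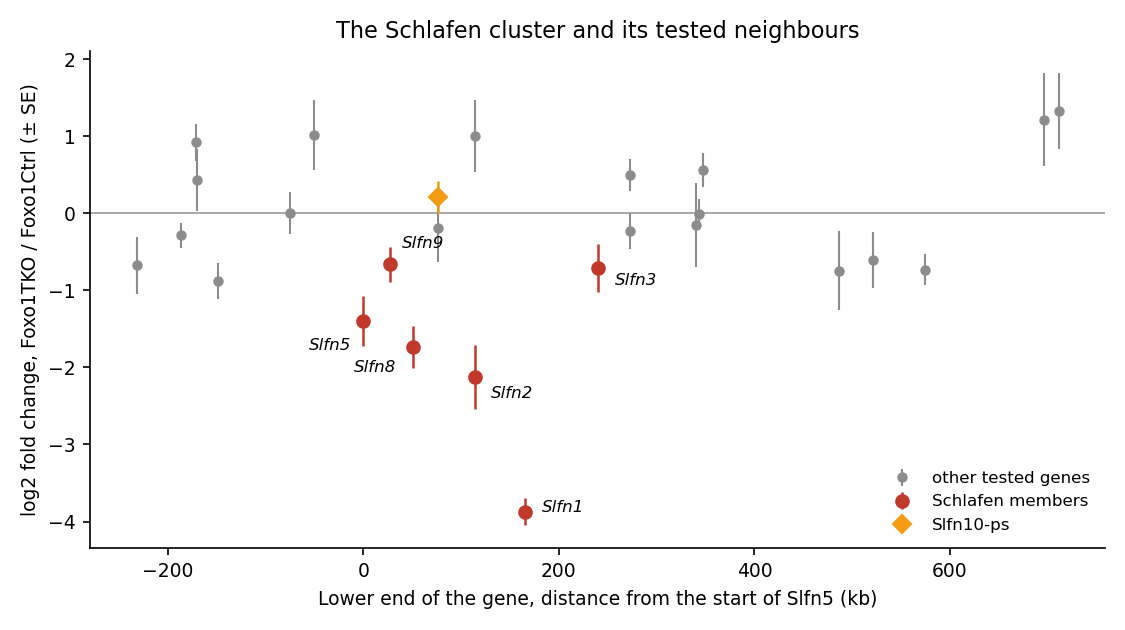
Log2 fold change with its SE (edgeR, 3 libraries per genotype) of each tested gene in and around the Schlafen cluster, against the distance of its lower end from the start of Slfn5 in kb. The 6 members lie between -3.87 and -0.66, while Slfn10-ps, between Slfn8 and Slfn2, is at 0.21 and the other genes are between -0.88 and 1.33.

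As transcription of several Schlafen genes is induced by interferon, the other genes of that pathway were read in the same libraries. Interferons signal through paired receptors to the kinases Jak1, Jak2 and Tyk2 and on to transcription factors such as Irf9. Of 17 genes of the pathway that were tested, 4 were lower in Foxo1TKO and the other 13 did not pass, with a median log2 fold change of -0.41. Among all genes tested, 11.8% were called lower and 23.0% in either direction. Ifnb1 and Ifna4, genes of type I interferons, had 0 TPM in every library. Among receptors, Ifngr1, a chain of the interferon-γ receptor, fell from 48357 ± 5062 to 4311 ± 390 normalized counts (SD, n = 3; edgeR, Benjamini-Hochberg adjusted p = 3.42e-05). Ifnar1 and Ifnar2, the chains of the type I interferon receptor, had log2 fold changes of -0.98 ± 0.35 and -0.07 ± 0.19 (SE), and neither passed the test (adjusted p = 0.0801 and 0.832). Of the transcription factors, Irf9 fell by 1.01 on the log2 scale (adjusted p = 0.00241). Socs3, an inhibitor of cytokine signalling, fell from 452 ± 155 to 9.84 ± 5.39 normalized counts (adjusted p = 0.00021).

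Of 39 tested interferon-stimulated genes, 22 were lower and the other 17 did not pass, with a median log2 fold change of -1.07. Gbp2, an interferon-inducible GTPase gene, fell from 18620 ± 3073 to 3103 ± 257 normalized counts (SD, n = 3), a log2 fold change of -2.58 ± 0.18 (SE; edgeR, Benjamini-Hochberg adjusted p = 0.000115). Ifit3, an antiviral gene, fell from 664 ± 167 to 88.0 ± 42.0 (adjusted p = 0.00151), and Ly6e fell by 0.86 on the log2 scale (adjusted p = 0.00453). Igtp, which encodes an interferon-inducible GTPase, fell by 1.36 (adjusted p = 0.00142). Psmb8, an immunoproteasome gene with the highest mean TPM of the list, had 28006 ± 3095 and 28046 ± 2564 normalized counts in Foxo1TKO and Foxo1Ctrl cultures and overlapped fully. The list thus moved in part. Its summed TPM was 8988 to 10361 in Foxo1Ctrl and 5303 to 5885 in Foxo1TKO libraries. The sum was lowest within each genotype in Foxo1Ctrl replicate 2 and Foxo1TKO replicate 3, as was that of the Schlafen members. The same held for the interferon pathway and for CD8 T cell, B cell, dendritic cell, neutrophil and erythroid markers. It did not hold for the quiescence and proliferation lists below or for T cell, macrophage and NK cell markers. Within Foxo1TKO, the sum of interferon-stimulated genes was highest in replicate 2 (5885 TPM), that of the Schlafen members in replicate 1 (241 TPM). TPM are not TMM-scaled, and Foxo1Ctrl replicate 2 had the lowest TMM factor of the 6 libraries (0.889). There Slfn1 had its lowest Foxo1Ctrl TPM (714) but its highest normalized counts (21451). Whether interferon-stimulated genes and the members vary together between libraries was not tested.

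Genes tied to T cell quiescence or to the naive state, in which Slfn2 takes part, were also lower for the most part. Of 15 tested, 10 were lower and 1 higher, with a median log2 fold change of -1.34. S1pr1, a receptor for egress from lymph nodes, fell from 8583 ± 2522 to 274 ± 12.5 normalized counts (SD, n = 3; edgeR, Benjamini-Hochberg adjusted p = 4.5e-05), and Il7r, the receptor for IL-7, fell by 3.49 on the log2 scale (adjusted p = 0.000191). Klf2, a factor of quiescence, had 653 ± 12.3 normalized counts in Foxo1Ctrl and 2.56 ± 3.04 in Foxo1TKO cultures. Klf4 was the gene that rose (1.99 ± 0.50, SE; adjusted p = 0.0236), from a low level. Several of these genes, such as S1pr1, Il7r and Klf2, are known to depend on Foxo1. Of 12 proliferation genes, 6 were higher and the other 6 did not pass, with a median log2 fold change of 0.82. Mcm6, which encodes part of the replicative helicase, rose by 1.12 ± 0.17 (adjusted p = 0.00288) and Mcm5 by 1.49 ± 0.31 (adjusted p = 0.0121). By dye dilution, a different measure, the study found that Foxo1-deficient T cells divided markedly less upon such activation. Of the 9 T cell markers, Cd28 was lower (log2 fold change -1.43 ± 0.18, adjusted p = 0.00119) and the others did not pass.

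**Figure D4:**
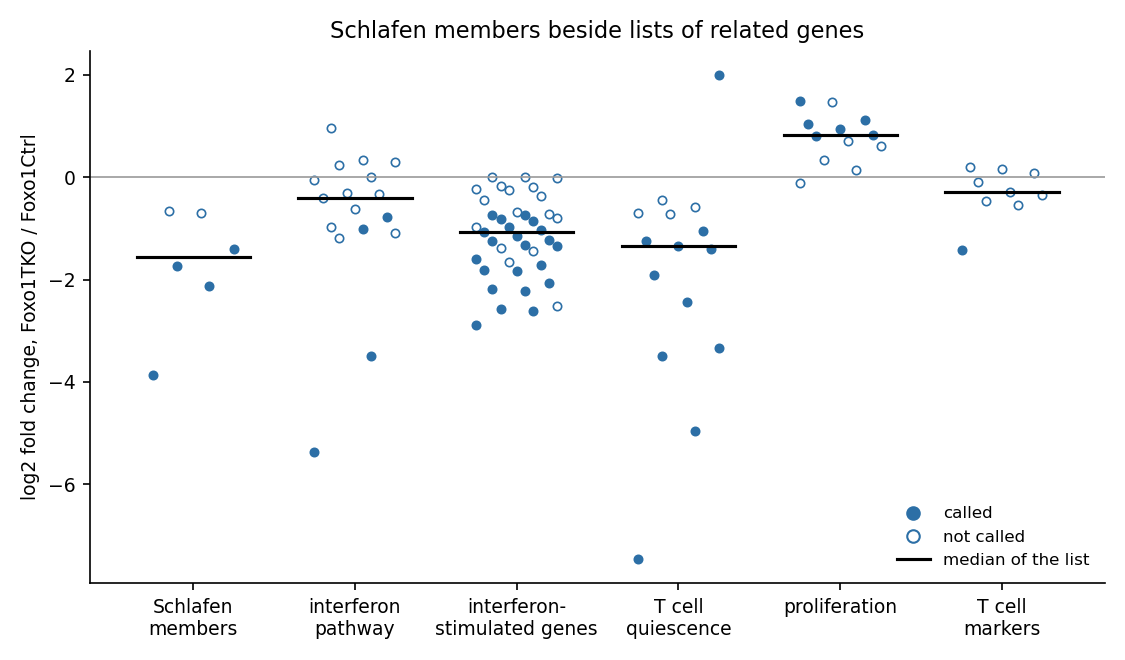
Log2 fold change of each tested gene (edgeR, Foxo1TKO over Foxo1Ctrl) among the Schlafen members and 5 lists of related genes, with filled points for called genes and a line at each median. Medians were -1.57 for the members, -0.41 for the interferon pathway, -1.07 for interferon-stimulated genes, -1.34 for quiescence, 0.82 for proliferation and -0.30 for T cell markers.

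The genes with a profile most like that of Slfn1, the member with the highest mean TPM, were looked for among 9235 genes whose normalized counts averaged 100 or more, by Pearson correlation of log2 CPM over the 6 libraries. The 5 closest were Ifit1bl1 (r = 0.9994), Gm11346 (0.9992), Mpp5 (0.9992), Gm33104 (0.9988) and Gm12250 (0.9988). With 6 points in 2 genotypes far apart, these values mostly describe the difference between genotypes that all of them share. The sizes of the fall were unequal. Ifit1bl1, a relative of the Ifit antiviral genes, fell from 12732 to 1242 normalized counts (log2 fold change -3.36 ± 0.16, SE), Gm12250 from 4047 to 989 (-2.03 ± 0.15), and Mpp5, a cell polarity scaffold gene, from 897 to 471 (-0.93 ± 0.15).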

How the data were processed

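RNA-seq was done on 3 Foxo1TKO and 3 Foxo1Ctrl cultures, grouped by the genotypes in their labels. The authors aligned reads with STAR 2.7.6a to Ensembl GRCm38 and estimated expected counts, TPM, FPKM and mean transcript lengths per gene with RSEM 1.3.1. These deposited expected counts are not normalized, the deposited TPM are scaled to transcript length and library, and the deposited FPKM were not used. The authors also deposited a normalized signal per gene, made with DESeq2 size factors and effective lengths.

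Expected counts were rounded and tested with edgeR 4.0.16 in R 4.3.3 (TMM, glmQLFit, glmQLFTest, genotype as the only term, prior count 1), for genes that reached 10 counts in 3 or more libraries, with Benjamini-Hochberg adjustment over all 13691 genes. Normalized counts are TMM-scaled. Calls required a change of over 1.5-fold and an adjusted p below 0.05. The lowest library total was 14783890. A count of 0 allows up to 3 counts, for counting error only. The members, lists and tests were chosen with earlier results of these data known. Alternatives were DESeq2 1.42.0, limma 3.58.1 (voom, and the authors' signal on log2(value + 1) or log2(value + 10)), other scalings, filters and thresholds, summed paralogs, a replicate block, and each library left out. The edgeR fit was tested on simulated data. Named genes were all members, Foxo1, other Schlafen genes, tested neighbours within 500 kb, the 5 genes most like the member with the highest mean TPM, and genes of the lists by size of change or level. Klf4, Igtp, Ifnar1 and Ifnar2 were named after their values were seen. A few genes of these groups enter the counts but are not reported by name. Gene positions (GRCm38) were taken from GENCODE M21, where 13679 of the tested genes were found. Figures were drawn with matplotlib 3.10.9.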

Additional observations from a re-analysis of the deposited data

How the results depend on the processing

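No direction reversed. The number of members called was 4 with limma-voom, with other scalings or filters and with no limit on fold change, 5 with DESeq2 (Slfn9 added), and 3 with effective lengths, with the authors' normalized signal and at an adjusted p under 0.01, where Slfn5 was lost each time. It was 3 to 4 with each library left out. The median of the members ran from -1.79 to -1.41 with each library left out. Slfn1 (-3.98 to -3.78), Slfn2 (-2.51 to -1.84) and Slfn8 (-1.90 to -1.48) were called under every alternative that fitted the gene by itself. The sums of paralogs that hold them were called too (-3.04 for Slfn1 with Slfn2, -0.97 for Slfn8 with Slfn9 and Slfn10-ps). Those are values of the sums and do not test the single genes. The highest adjusted p of Slfn2 was 0.0472. Slfn5 had adjusted p-values of 0.0762 and 0.0536 with the authors' signal at pseudocounts of 1 and 10.

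Correlations did not settle whether replicate numbers pair the libraries: same-numbered deviations correlated at 0.54, 0.30 and -0.22. Replicates 1 and 2 were closest to their own number (at most 0.30 and -0.15 with another). Replicate 3 was closer to another number (0.43). With a replicate block, 3318 genes were called in place of 3144, and 4 members, with a median log2 fold change of -1.60. The SE of the log2 fold change ran from 0.18 for Slfn1 to 0.41 for Slfn2. Depth did not allow a test of Slfn4, with at most 4.02 counts in a library.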
